A study of Mus musculus with 6 samples.

Results

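The genes described here encode STAT proteins, the signal transducers and activators of transcription, and were measured by RNA sequencing in mouse bone marrow monocytes with and without granulocyte-macrophage colony-stimulating factor (GM-CSF). They were taken by symbol from the deposited count table and are 6 of its 24421 gene entries: Stat2, Stat3, Stat4, Stat5a, Stat5b and Stat6. The monocytes, phagocytes that leave the marrow for the blood and tissues, were sorted from B6 mice. GM-CSF libraries (n = 3) came from fresh monocytes stimulated for 3 h with 5 ng of the cytokine, for which no volume is given. Control libraries (n = 3) are labelled as fresh isolated cells in one field, whereas other fields describe 3 h in medium with or without GM-CSF, so time in culture and the cytokine cannot be told apart. The labels do not give the age or sex of the mice, the sort markers or whether replicates came from separate animals, and p-values therefore measure only the spread between these libraries, which may be technical.

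STAT proteins wait in the cytoplasm until a cytokine binds its receptor and Janus kinases (JAKs) attached to that receptor phosphorylate them. They then pair up, enter the nucleus and switch on genes, among them those of the SOCS family and Cish, which act as brakes on the same receptors. The GM-CSF receptor is known to work through JAK2 and STAT5, which in the mouse is made from the neighbouring genes Stat5a and Stat5b. STAT activity depends on phosphorylation, which mRNA levels do not measure.

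All 6 genes passed the filter on low counts. Stat2, Stat4, Stat5a and Stat5b had lower mRNA levels in GM-CSF libraries than in control libraries. With GM-CSF, Stat2 fell by 76.3%, Stat4 fell by 38.0%, Stat5b fell by 31.8% and Stat5a fell by 24.0%. Stat3 and Stat6 did not pass the test, and none of the 6 rose. Changed here means an adjusted p under 0.05 in edgeR's quasi-likelihood test, with Benjamini-Hochberg adjustment across the 11731 genes that were tested. The count of 4 changed genes among 6 has to be read against a broad response, since 64.0% of all genes tested changed in this comparison, 32.8% upwards and 31.2% downwards. The balance of directions depended on scaling, with 3851 genes higher and 3660 lower here but 3257 higher and 4318 lower with upper quartile scaling. Groups did not overlap for 5 of the 6 STAT genes, and likewise for 69.5% of all genes tested.

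The sequences examined here are the start regions of the 6 genes and the coding sequences of Stat5a and Stat5b. RefSeq start regions on GRCm38.p6, from 250 bases before to 50 bases after each annotated start, were searched on both strands for TTCNNNGAA, the palindrome that most STAT dimers bind, for the wider form known for STAT6, in which 4 bases separate TTC and GAA, and for GAAA repeated after 2 bases, the core of the element bound by the STAT2 and IRF9 complex. Matches to different motifs were allowed to overlap. The 6 genes have 9 such windows, as Stat4, Stat5a and Stat5b are annotated with more than 1 start. The GAAA repeat was found in the Stat2 window and in the window of the second Stat4 start, while 3.44% of all 32851 windows hold it. The wider TTC and GAA form was found in the Stat2 window, against 6.95% of all windows. TTCNNNGAA was found in none of the 9 windows, against 8.30% of all windows. No window of Stat5a or Stat5b, which also fell, held any of these motifs, nor did those of Stat3 and Stat6. Which Stat4 start is used in these cells, and whether any match has a part in the falls, was not tested.

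The 250 bases before the Stat2 start (chr10:128270248-128270497, plus strand) and before the second Stat4 start (chr1:52007990-52008239, plus strand) are printed here because they hold these matches, in capitals. In Stat2 the first capital stretch is the GAAA repeat read on the minus strand, at bases -222 to -213 from the start, and the second is the wider TTC and GAA form at -210 to -201. In Stat4 the capitals mark the GAAA repeat at -97 to -88. A match in letters is not evidence that a factor binds there.
Stat2: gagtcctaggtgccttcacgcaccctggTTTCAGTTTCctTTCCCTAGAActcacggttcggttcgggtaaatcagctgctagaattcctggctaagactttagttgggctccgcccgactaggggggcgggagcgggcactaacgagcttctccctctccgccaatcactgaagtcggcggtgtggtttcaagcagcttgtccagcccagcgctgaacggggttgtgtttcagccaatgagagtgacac
Stat4: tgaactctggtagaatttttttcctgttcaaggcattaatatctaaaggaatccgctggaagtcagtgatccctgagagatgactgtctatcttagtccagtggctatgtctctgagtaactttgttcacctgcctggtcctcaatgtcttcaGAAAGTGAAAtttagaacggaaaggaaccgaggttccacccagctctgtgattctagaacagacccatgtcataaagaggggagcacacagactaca

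Stat5a and Stat5b are close relatives, and how far their reads can be told apart depends on their sequences. Their coding sequences (2394 and 2361 bases, GENCODE M21) were identical at 90.8% of aligned bases, whereas the other pairs among the 6 genes were identical at 61.9% to 67.8%. The longest identical stretch ran for 324 bases, from base 571 to base 894 of both coding sequences. A read of 150 bases inside it fits both genes, as does 2.21% of all 150-base windows of Stat5a transcripts and 3.16% of those of Stat5b. No other pair of the 6 genes shared a 150-base window. The 60 coding bases around the end of the identical stretch (bases 865 to 924) show how little separates the genes there, with the single differing base in capitals:
Stat5a: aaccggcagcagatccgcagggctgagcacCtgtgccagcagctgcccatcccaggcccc
Stat5b: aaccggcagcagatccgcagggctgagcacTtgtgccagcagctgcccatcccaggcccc

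The last 60 coding bases, by contrast, are shown because the genes part there (bases 2335 to 2394 of Stat5a and 2302 to 2361 of Stat5b):
Stat5a: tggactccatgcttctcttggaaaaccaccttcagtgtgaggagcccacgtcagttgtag
Stat5b: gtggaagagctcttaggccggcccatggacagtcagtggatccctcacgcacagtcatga

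Reads that fit more than 1 place were set aside by the authors' counting, as the table lists 18.0% to 19.6% of reads per library as not uniquely aligned. Reads of the identical stretch may therefore be missing from both genes, except where the paired read lies outside it. The values of Stat5a and Stat5b carry that uncertainty.

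On GRCm38 the genes lie in 3 places. Stat5b (chr11:100780731-100850724, minus strand), Stat5a (chr11:100859351-100885169, plus strand) and Stat3 (chr11:100885098-100939540, minus strand) stand side by side within 158810 bases. Stat5b and Stat5a point away from each other across a gap of 8626 bases, and the 3′ ends of Stat5a and Stat3 run into each other, sharing 72 bases of exon on opposite strands. Stat6 (chr10:127642986-127660957, plus strand) and Stat2 (chr10:128270559-128292849, plus strand) are 609601 bases apart, and Stat4 (chr1:51987148-52107189, plus strand) stands alone among the genes described. All 6 are annotated as protein-coding. The 3′ end of Stat6 shares 40 bases with that of Nab2, a corepressor of EGR transcription factors. Whether the counting used strand is not given in the sources used here, so reads in these shared bases, 0.756% of the Stat3, 1.01% of the Stat5a and 0.909% of the Stat6 exon length, cannot be assigned with certainty. Stat4 shares 1033 exon bases, 26.7% of its exon length, with Gm28177, a non-coding transcript on the same strand that was not analysed here, so the origin of reads in that stretch is uncertain.

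**Figure D1:**
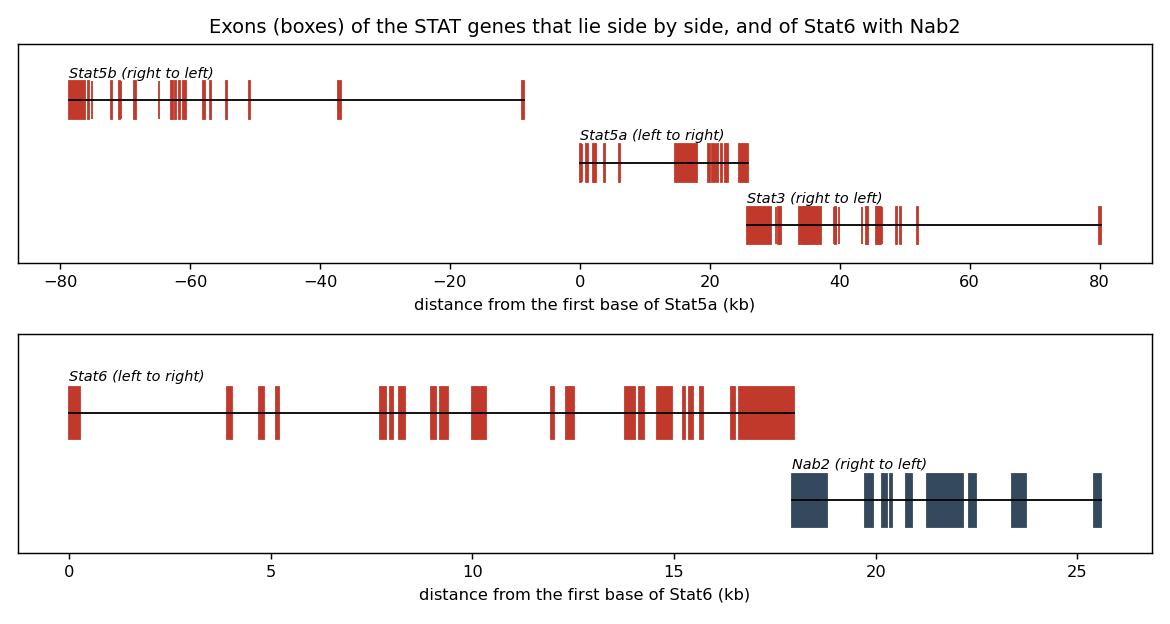
Exons of Stat5b, Stat5a and Stat3 (upper panel, in kb from the first base of Stat5a) and of Stat6 and Nab2 (lower panel, in kb from the first base of Stat6), with boxes for exons, lines for the gene span and the direction of transcription beside each name. The ends of Stat5a and Stat3 share 72 bases and those of Stat6 and Nab2 share 40 bases.

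Libraries held 16643228 to 25232956 reads assigned to genes, and values are given as CPM, read counts scaled to a library total of 1000000. GM-CSF replicate 3 stood somewhat apart, at correlations of 0.980 and 0.983 with the other GM-CSF libraries across genes, which are not independent replicates, against 0.990 for GM-CSF replicates 1 and 2 and 0.992 for each control pair. Of 14 monocyte markers all were detected, led by the lysozyme gene Lyz2 (21394 ± 1053 CPM in GM-CSF and 56025 ± 4548 CPM in control libraries, SD) and followed by Ly6c2 (3208 and 4080 CPM). Of these, 9 fell and 2 rose, which is 78.6% called, beside 64.0% of all genes tested. The rises were Cd14 (851 ± 244 CPM in GM-CSF and 39.7 ± 4.33 CPM in control libraries) and Adgre1 (374 ± 70.9 and 216 ± 24.3 CPM). Genes listed as markers of other cells were also detected. The summed neutrophil and granule, B cell and dendritic cell markers differed between groups without overlap. Whether the monocytes themselves or other cells expressed these genes was not tested. Summed over 14 measured genes, neutrophil and granule markers were at 16611 to 20772 CPM in GM-CSF and 28886 to 39771 CPM in control libraries. Of these genes 8 fell, 1 rose (Ctsg, 0.31 ± 0.10, with groups that overlapped in CPM) and 5 were not called, among them Elane, Mpo and Prtn3. This is 64.3% called, close to the 64.0% of all genes tested. All 14 monocyte markers summed to 30314 to 33246 CPM in GM-CSF and 64546.5 to 74157 CPM in control libraries. The 13 other than Lyz2 summed to 9937 to 10766 and 13699 to 14779 CPM. Such sums depend on the genes listed and do not measure shares of cells. B cell markers (9 genes) summed to 38.2 to 50.9 CPM in GM-CSF and 77.4 to 84.6 CPM in control libraries, and dendritic cell markers (9 genes) to 169 to 213 and 61.1 to 90.0 CPM. The dendritic cell sum was higher through Cd209a (173 ± 23.1 CPM in GM-CSF and 39.9 ± 15.1 CPM in control libraries), while the other 8 markers summed to 11.04 to 13.9 CPM in GM-CSF and 35.8 to 38.2 CPM in control libraries. The remaining sums overlapped between groups. Eosinophil, basophil and mast cell markers (9 genes, Epx at 0) summed to 24.5 to 37.9 CPM in GM-CSF and 16.7 to 30.6 CPM in control libraries, and erythroid and progenitor markers (9 genes, the 4 haemoglobin genes at 0) to 23.5 to 25.1 and 21.7 to 43.2 CPM. The part of any other cells in the STAT values was not tested. In such bulk samples fewer cells of a type and less RNA per cell cannot be told apart.

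Stat2, which carries type I interferon signals together with the DNA-binding partner IRF9, showed the steepest fall of the 6. It was at 23.5, 27.1 and 22.2 CPM in GM-CSF replicates 1 to 3 and at 94.2, 114 and 100.1 CPM in control replicates 1 to 3. Every GM-CSF library lay far below every control library. The log2 fold change was -2.08 ± 0.10 (SE), a level of 0.237 times the control level with a 95% interval of 0.202 to 0.278 (edgeR adjusted p = 3.45e-08). Stat2 was the only one of the 6 to fall at least 2-fold, which 12.6% of all genes tested did, and 371 of the 11731 genes tested had a lower fold change.

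Stat4, which passes on interleukin 12 and interferon signals and is best known from T cells and natural killer (NK) cells, was the rarest of the 6 mRNAs. Its 200 to 236 reads in GM-CSF and 402 to 495 reads in control libraries corresponded to 11.9, 12.9 and 10.99 CPM in GM-CSF replicates 1 to 3 and 20.6, 18.0 and 19.3 CPM in control replicates 1 to 3. The groups did not overlap, and the log2 fold change was -0.69 ± 0.13 (95% interval -0.97 to -0.41; edgeR adjusted p = 6.10e-04). The markers of those cells are given beside it. Of 16 T and NK cell markers each had reads and 6 were tested. Of those tested 1 fell, which is 16.7% called, beside 64.0% of all genes tested. It was Il2rb, at 0.25 CPM in GM-CSF and 1.18 CPM in control libraries (-2.18 ± 0.46; edgeR adjusted p = 0.00169). The 16 markers summed to 173 to 199 CPM in GM-CSF and 182 to 238 CPM in control libraries. Nearly all of that came from the granule gene Nkg7 (181 ± 13.4 CPM in GM-CSF and 194 ± 32.4 CPM in control libraries), which did not pass the test. The other 15 markers together were lower in GM-CSF without overlap, at 6.33 to 6.44 CPM against 7.002 to 8.68 CPM in control libraries. The part of T and NK cells in the Stat4 values was not tested.

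The STAT5 genes, which carry the GM-CSF, interleukin 3 and interleukin 5 signals, were both lower. Stat5b was at 114, 128 and 128 CPM in GM-CSF replicates 1 to 3 and at 174, 188 and 184 CPM in control replicates 1 to 3. Its groups were well apart, with a log2 fold change of -0.55 ± 0.07 (95% interval -0.71 to -0.39; edgeR adjusted p = 4.98e-05). Stat5a was at 43.1, 49.9 and 55.1 CPM in GM-CSF replicates 1 to 3 and at 64.0, 68.4 and 63.6 CPM in control replicates 1 to 3. GM-CSF libraries again lay below control libraries, though with a wider spread among themselves (coefficient of variation 12.1% in GM-CSF and 4.14% in control libraries), and the log2 fold change was -0.40 ± 0.10 (95% interval -0.61 to -0.18; edgeR adjusted p = 0.00455).

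Whether the balance between Stat5a and Stat5b shifted was tested on their ratio within each library, from which library size drops out. Stat5a reads made up 27.4%, 28.1% and 30.1% of the reads of both genes in GM-CSF replicates 1 to 3 and 26.9%, 26.7% and 25.6% in control replicates 1 to 3. GM-CSF libraries were slightly higher without overlap, the log2 ratio differing by 0.15 (-1.33 ± 0.10 in GM-CSF and -1.48 ± 0.05 in control libraries, SD). The exact two-sided permutation test gave p = 0.1, which is the smallest p that 3 against 3 libraries allow, so the shift could not reach 0.05 in this design. Without GM-CSF replicate 3 the difference was 0.096.

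Stat3, which serves the interleukin 6 and interleukin 10 families and the G-CSF receptor, did not pass the test. It was at 421, 398 and 366 CPM in GM-CSF replicates 1 to 3 and at 379, 338 and 357 CPM in control replicates 1 to 3. Control replicate 1 lay above GM-CSF replicate 3, so the groups overlapped. The log2 fold change was 0.15 ± 0.08 with a 95% interval of -0.03 to 0.33 (edgeR adjusted p = 0.126), an interval that in percent runs from -1.92% to 25.5%. Stat3 passed without GM-CSF replicate 3 (0.21, adjusted p = 0.0411) and with a correction for GC content (0.20, adjusted p = 0.0483).

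Stat6, which carries interleukin 4 and interleukin 13 signals, was the most abundant of the 6 and the steadiest. It was at 517, 535 and 533 CPM in GM-CSF replicates 1 to 3 and at 492, 506 and 489 CPM in control replicates 1 to 3. GM-CSF libraries were a little higher without overlap, but the log2 fold change of 0.10 ± 0.06 did not pass the test (95% interval -0.04 to 0.24; edgeR adjusted p = 0.202). Its sign depended on the scaling. With upper quartile scaling, which gave a median of all genes tested of -0.11 in place of 0.0072, it was -0.019, and with the GC correction it was 0.16 and called (adjusted p = 0.0406). Nab2, whose end overlaps that of Stat6, rose to 155 ± 4.34 CPM in GM-CSF libraries, against 4.57 ± 0.524 CPM in control libraries (log2 fold change 5.09 ± 0.11; edgeR adjusted p = 5.90e-11). How much the 40 shared bases add to Stat6 was not tested.

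**Figure D2:**
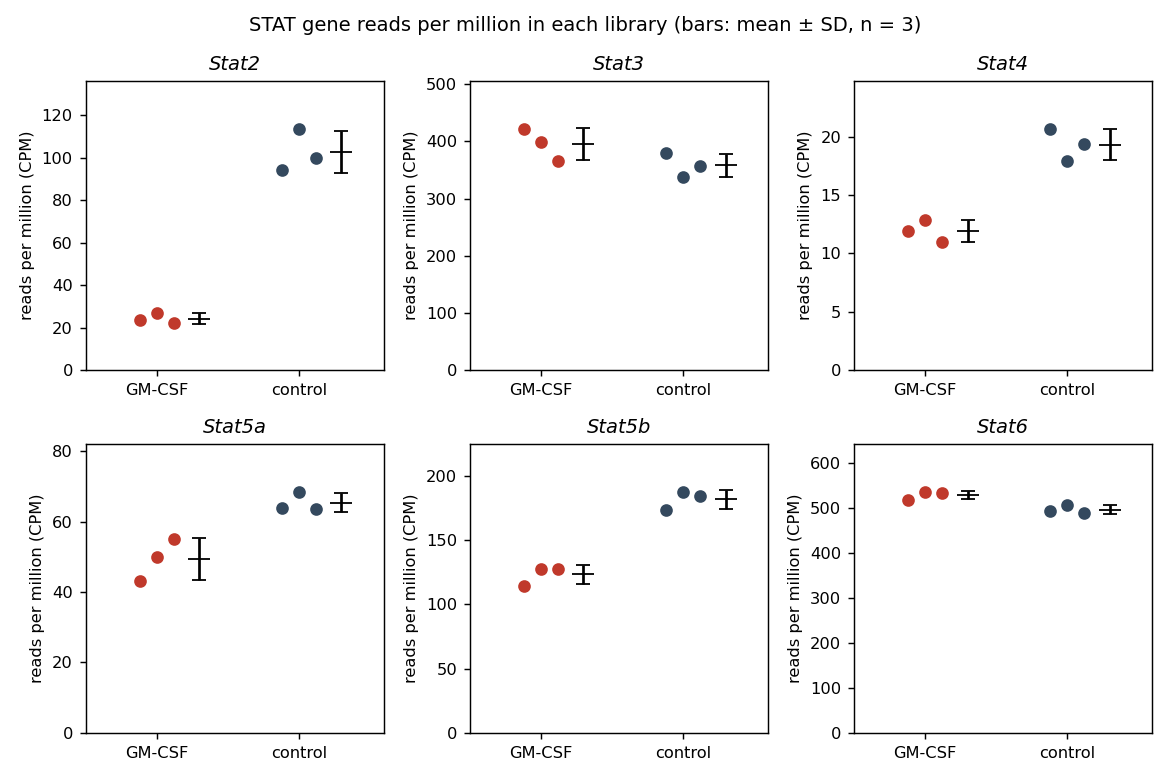
Levels in CPM (y axis from 0) of each STAT gene in the 3 GM-CSF libraries (left, red points) and the 3 control libraries (right, dark points), with bars for mean ± SD. Stat2 stands at 22.2 to 27.1 CPM in GM-CSF and 94.2 to 114 CPM in control libraries, while the points of Stat3 overlap between groups.

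**Figure D3:**
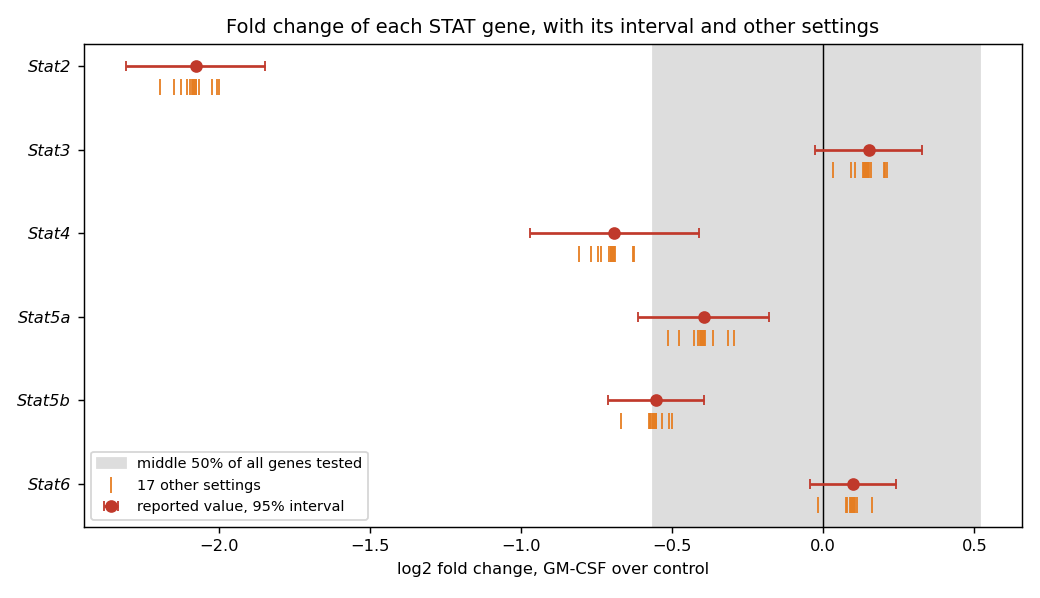
Log2 fold change of GM-CSF over control for each STAT gene (red points, bars for the 95% interval), with the values under 17 other settings of the analysis (orange ticks) and the middle 50% of all genes tested (grey, -0.56 to 0.52). Stat2 at -2.08 and Stat4 at -0.69 lie outside the grey band and the other 4 genes inside it.

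Levels of different genes can be compared only per length. On the TPM scale, computed here as reads per base of exon scaled to a library total of 1000000, the order in GM-CSF libraries was Stat6 (365 ± 6.93 TPM), Stat3 (126 ± 9.62 TPM), Stat5b (67.7 ± 4.10 TPM), Stat5a (21.04 ± 2.44 TPM), Stat2 (12.5 ± 1.40 TPM) and Stat4 (9.36 ± 0.808 TPM). In control libraries it was Stat6 (303 ± 11.7 TPM), Stat3 (101 ± 4.36 TPM), Stat5b (88.4 ± 4.86 TPM), Stat2 (46.7 ± 5.39 TPM), Stat5a (24.7 ± 1.51 TPM) and Stat4 (13.4 ± 0.722 TPM). Stat2 thus had rank 5 in GM-CSF and rank 4 in control libraries, trading places with Stat5a. No pair of neighbours in either order overlapped in its range over 3 libraries. The same orders were found with the length of the longest protein-coding transcript, while the ratio of Stat5b to Stat5a per length depended on that choice, at 3.23 in GM-CSF and 3.59 in control libraries with exon length and 1.87 and 2.08 with transcript length.

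Stat6 alone made up 60.7% ± 0.724 of the summed TPM of the 6 genes in GM-CSF libraries and 52.5% ± 0.314 in control libraries (SD, n = 3 each). Stat2 made up 2.07% ± 0.188 in GM-CSF and 8.07% ± 0.676 in control libraries. Of 11307 tested genes with a length, 96.2% were below Stat6 in either group, while 42.3% were below Stat2 in GM-CSF and 74.7% in control libraries. Stat2 was thus below the middle of the tested genes in GM-CSF libraries and in their upper range in control libraries. The TPM scale is set by all genes of a library, and changes between groups are therefore taken from the fitted counts above.

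**Figure D4:**
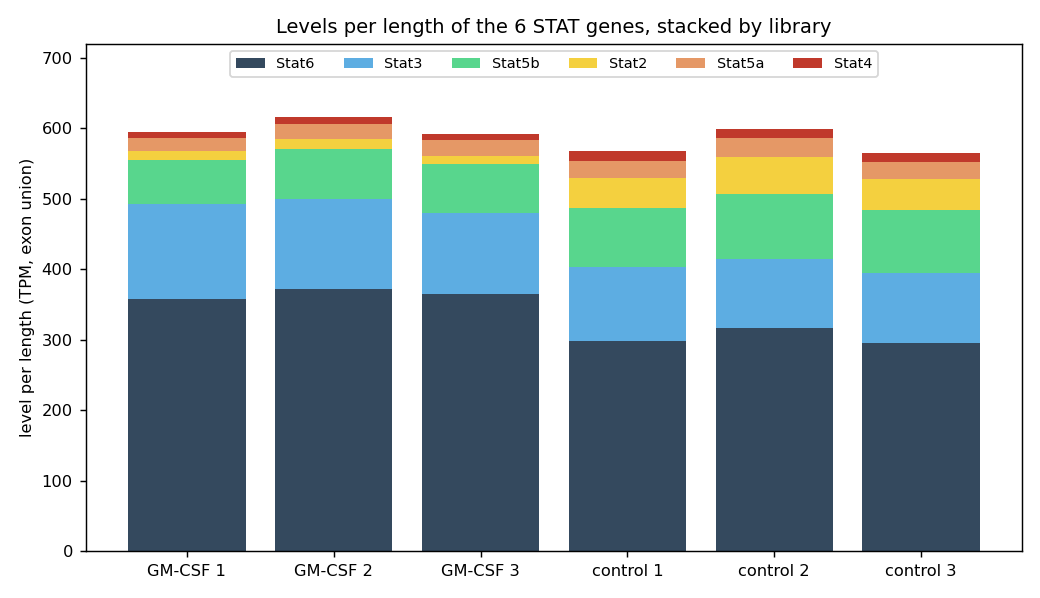
Levels per length (TPM, y axis from 0) of the 6 STAT genes stacked for each library, GM-CSF libraries on the left and control libraries on the right. Stat6 forms the largest block in every library, and the Stat2 block is thinner in GM-CSF (11.3 to 14.0 TPM) than in control libraries (42.3 to 52.7 TPM).

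Upstream of the STATs, the 4 Janus kinase genes moved apart. Jak2, the kinase of the GM-CSF receptor, rose to 263 ± 43.8 CPM in GM-CSF libraries, against 42.1 ± 3.55 CPM in control libraries (log2 fold change 2.65 ± 0.12; edgeR adjusted p = 1.79e-08). Tyk2, a kinase of the interferon and interleukin 12 receptors that pass signals to STAT2 and STAT4, fell to 143 ± 16.5 CPM in GM-CSF libraries, against 257 ± 12.8 CPM in control libraries (-0.84 ± 0.09; adjusted p = 1.01e-05). Jak3, which serves receptors with the common gamma chain, fell as well (-0.64 ± 0.10), and Jak1 was at 294 ± 20.0 CPM in GM-CSF and 307 ± 9.20 CPM in control libraries and did not pass (adjusted p = 0.542).

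Of 27 genes for receptor chains that signal through STATs, 21 were tested, of which 10 rose and 5 fell. This is 71.4% called, beside 64.0% of all genes tested. Their median log2 fold change was 0.21, beside 0.0072 for all genes tested. The list's median was 0.067 without a filter on low counts, 0.087 with upper quartile scaling and 0.13 without control replicate 2. The largest rises were in Csf2rb2 (2.94 ± 0.11), a beta chain that serves interleukin 3, and Csf2rb (2.73 ± 0.09), the signalling chain of the GM-CSF receptor. They are near-identical neighbours, and reads that fit both may be missing from both. Of 13 partners and cofactors, 3 rose and 4 fell (53.8% called, median -0.017). That median ran from -0.13 with upper quartile scaling to 0.11 without GM-CSF replicate 3. Irf9, the partner of STAT2, fell to 55.9 ± 0.660 CPM in GM-CSF libraries, against 186 ± 20.2 CPM in control libraries (-1.73 ± 0.10; adjusted p = 6.68e-08). Ncoa3, a nuclear receptor coactivator, rose (0.65 ± 0.08).

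Most inhibitors and phosphatases of STAT signalling were higher. Of 23 tested, 15 rose and 4 fell (82.6% called, beside 64.0% of all genes tested, median 0.77). Cish, a feedback inhibitor of STAT5 signalling, rose to 2046 ± 250.3 CPM in GM-CSF libraries, against 1.46 ± 0.739 CPM in control libraries (log2 fold change 10.43 ± 0.24; edgeR adjusted p = 1.24e-10). Socs2, a brake on growth hormone and STAT5 signalling, had 1554 reads in GM-CSF and 3 in control libraries, which is 661 times as many per read sequenced (95% interval for counting error 226 to 3207). The phosphatase genes Ptpn1, Ptpn2 and Ptpn6 rose (1.76, 1.57 and 0.95). The 4 that fell were Ptprc (-0.86), Pdlim2 (-1.74), Pias3 (-1.94) and Usp18 (-2.17), of which Pias3 encodes an inhibitor of STAT3 and Usp18 a brake on the type I interferon receptor. These genes were named after their values were seen, except Cish and Socs2.

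Genes known as targets of each STAT were counted from lists that overlap in part. The lists were chosen with earlier results of these data known, so their shares and medians are descriptions and no test. Cish and Socs1 stand in both the STAT5 and the STAT6 list, and Socs3, Pim1, Mcl1 and Bcl2l1 in both the STAT5 and the STAT3 list. Il4ra stands in both the STAT3 and the STAT6 list, and Il2ra, which was not tested, in both the STAT5 and the STAT4 list. The share of tested genes called was 100% in the STAT2 and IRF9 list and in the STAT3 list. It was 88.9% for STAT6, 88.2% for STAT5 and 66.7% for STAT4 targets, beside 64.0% of all genes tested. Of the 23 STAT2 and IRF9 targets tested, which include Stat2 and Irf9 themselves, all 23 fell and none rose (median -2.17). Ifit3, an antiviral protein gene, was at 3.00 ± 1.44 CPM in GM-CSF and 51.6 ± 16.6 CPM in control libraries, and the antiviral GTPase gene Mx1 was at 8.76 ± 3.57 and 84.0 ± 12.8 CPM. Stat2, at -2.08, is itself counted in the list's median. Whether its fall has a part in that of the other genes was not tested.

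Most tested targets of STAT5, STAT3 and STAT6 rose. Of 17 STAT5 targets tested, 14 rose and 1 fell, the repressor gene Bcl6 at -0.89 (median 2.93), while Stat5a and Stat5b themselves were lower. The number of STAT5 targets that fell was 2 without GM-CSF replicate 3 and with upper quartile scaling. Of 19 STAT3 targets, 15 rose and 4 fell (median 1.89). Socs3, the main brake on interleukin 6 signalling, rose to 1559 ± 173 CPM in GM-CSF libraries, against 10.2 ± 3.25 CPM in control libraries (log2 fold change 7.27 ± 0.20; edgeR adjusted p = 5.40e-10), and Pim1, a survival kinase gene, rose to 329 ± 54.6 CPM, against 43.4 ± 2.36 CPM in control libraries. The STAT3 targets that fell were Birc5 (-0.47), Fgl2 (-0.79), Tnfrsf1b (-0.96) and Cebpd (-1.19). The median of this list was 1.51 without GM-CSF replicate 1, and again 1.89 with Timp1, which had 0 control reads, at its bound of 71.0-fold.

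Of 18 STAT6 targets tested, 14 rose and 2 fell (median 3.49), the chitinase-like gene Chil3 (-0.97) and the transcription factor gene Klf4 (-0.77). Ccl22, a chemokine gene, had 295 reads in GM-CSF and 0 in control libraries and was at least 125-fold higher when the control libraries together are credited with 3 reads, the most that 0 is taken to allow. With Ccl22 at that bound the median was again 3.49. The number of STAT6 targets that fell was 1 without the 10 most abundant genes. Of 10 STAT4 targets only 6 were tested, of which 3 rose and 1 fell (median 0.68). This median was 1.12 without GM-CSF replicate 3, 1.15 without control replicate 2, 1.13 without control replicate 3 and 1.17 with a filter of at least 1 CPM in 3 libraries. Il12rb2, a chain of the interleukin 12 receptor, rose to 15.1 ± 2.33 CPM in GM-CSF libraries, against 5.15 ± 0.417 CPM in control libraries. The protease gene Furin rose as well (1.82 ± 0.33; adjusted p = 6.30e-04), but GM-CSF replicate 3 stood at 186 CPM beside 64.6 and 72.4 CPM in GM-CSF replicates 1 and 2, and without it the log2 fold change was 1.17. The STAT4 target that fell was the transcription factor gene Hlx (-0.39), and the number of lower genes in this list was 0 without control replicate 1, without control replicate 3 and with the GC correction. The read-count interval of Socs2 and the bounds of Timp1 and Ccl22 cover counting error only.

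**Figure D5:**
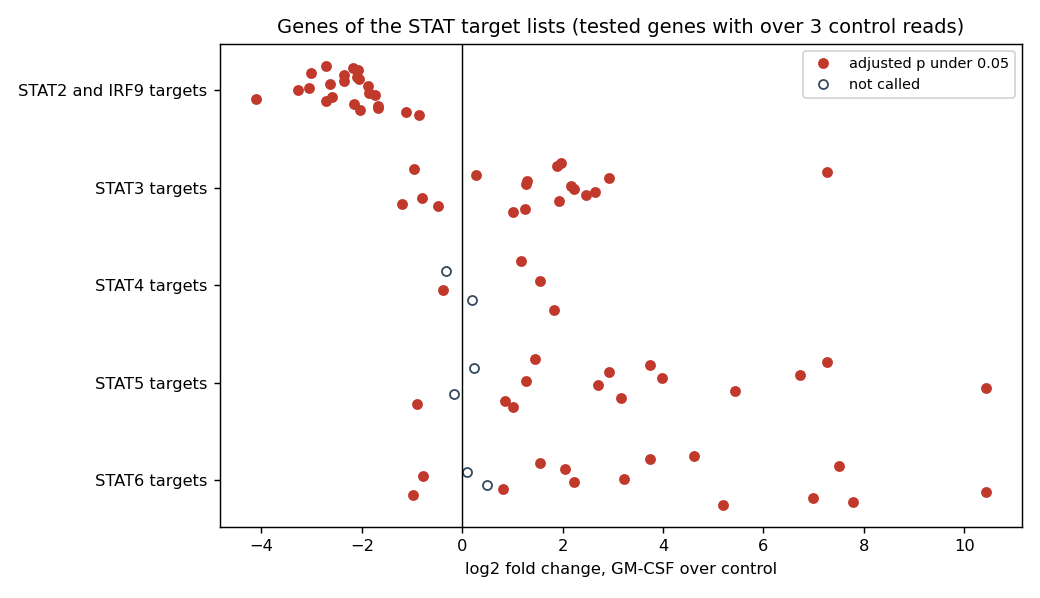
Log2 fold change of GM-CSF over control for genes known as targets of each STAT (1 point a gene, filled where the adjusted p was under 0.05), for tested genes with more than 3 control reads. All points of the STAT2 and IRF9 list lie below 0, and most points of the STAT3, STAT5 and STAT6 lists above it.

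The genes whose pattern over the 6 libraries was most like that of each STAT gene were sought among tested genes with a mean log2 CPM within 1 of it, by the Euclidean distance between log2 CPM profiles centred on each gene's mean. Nearest to Stat2, among 3872 candidates, was Hpse (distance 0.136), the heparanase gene, followed by Tep1 (0.272). Hpse was at 51.9, 54.8 and 46.0 CPM in GM-CSF replicates 1 to 3 and at 189, 222 and 199 CPM in control replicates 1 to 3. Nearest to Stat4 were Sfxn2 (0.122) and Iah1 (0.130), to Stat5a Actr8 (0.0915) and Hsdl1 (0.0916), and to Stat5b Sh3tc1 (0.0910) and Taok3 (0.101). Nearest to Stat3 were the calmodulin gene Calm2 (0.0742) and the proteasome gene Psma2 (0.109), and to Stat6 the citrate lyase gene Acly (0.0577) and the proton pump gene Atp6v0b (0.0891). The 4 genes nearest to Stat3 and Stat6 had fold changes of 0.10 to 0.17 on the log2 scale, and the signs of Psma2, Acly and Atp6v0b turned with upper quartile scaling, as that of Stat6 did. That scaling moved the median of all genes tested from 0.0072 to -0.11. As these genes were chosen for like profiles, the shared turn is no separate result.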

How the data were processed

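The authors deposited raw counts of reads by gene symbol, with columns named by sample title. Tools listed without roles in the submitters' processing notes are STAR 2.5.2a, HTSeq 0.6.1p1, Trim Galore 0.4.4 and edgeR, and the build is mm10. Annotation and strand use were not given there. Per the labels, poly(A) RNA was sequenced as paired reads of 150 bases. Summary entries without a gene did not enter any total or test and held 7.82% to 9.72% (no feature), 1.44% to 1.53% (ambiguous) and 18.0% to 19.6% (not unique) of reads.

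The fit used edgeR 4.0.16 in R 4.3.3 (quasi-likelihood F test, group as the only term, TMM, filterByExpr at count 10 and total 15), with Benjamini-Hochberg adjustment over 11731 genes at 0.05. The SE of a log2 fold change was taken as its size over √F. The procedure was run on simulated counts with far fewer changed genes than here and the same dispersion for every gene. That run therefore does not measure error rates in this comparison. Exon lengths and positions came from GENCODE M21 on GRCm38, the assembly of mm10, which matched 23376 of 24421 symbols. At the depth reached, 3 reads equal 0.119 to 0.180 CPM.

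Libraries of a group differed by more than sampling noise (chi-square per degree of freedom 11.3 to 39.1). The 6 genes and all gene lists were chosen with earlier results of these data known. Named list genes are the 2 largest changes per list past the threshold at a mean log2 CPM of at least 1, all Janus kinases, the leading gene of each marker list and the 2 nearest patterns per STAT gene. Others were named after their values were seen. Alternatives were other scalings, filters and priors, DESeq2 1.42.0, limma-voom (limma 3.58.1), removal of the 10 most abundant genes, a replicate block, leaving out each library and, added after seeing the data, a GC correction (loess, span 0.5) and another length.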

Additional observations from a re-analysis of the deposited data

How the results depend on the processing

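Stat2, Stat4, Stat5a and Stat5b were lower and called under all 17 other settings. Their log2 fold changes ran from -2.19 to -2.00, from -0.81 to -0.63, from -0.51 to -0.30 and from -0.67 to -0.50. The calls of the remaining genes were less settled. The GC correction called Stat3 (0.20) and Stat6 (0.16), so that 6 of 6 genes were called, and upper quartile scaling turned the sign of Stat6 (-0.019). With 1 library left out, Stat3 ran from 0.092 to 0.21 and was called only without GM-CSF replicate 3, Stat6 ran from 0.075 to 0.11, and the Stat5a to Stat5b difference ran from 0.096 to 0.19. Upper quartile scaling also turned Psma2 (-0.022), Acly (-0.016) and Atp6v0b (-0.020), and the GC correction turned Psma2 (-0.040). Nkg7 ran from -0.163 to 0.043 with 1 library left out and turned without control replicate 3. The causes were not tested. Over all genes, 6739 to 7739 were called under these settings, against 7511. Same-numbered libraries deviated together at correlations of 0.0727, 0.00984 and 0.00380, all under 0.1, so the numbers were not taken as pairs, and not every library correlated best with its own number. With a replicate block 7493 genes were called and the same 4 STAT genes. The paired difference of the Stat5a to Stat5b log2 ratio was 0.15 (exact sign-flip p = 0.25, the smallest that 3 pairs allow). With 3 libraries a group, the interval of Stat3 ran from -1.92% to 25.5%, so changes within that range were not excluded.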
